A study of Mus musculus with 24 samples.

Results

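Per1, Per2 and Per3 are the 3 mammalian Period genes, and they were followed in the RNA of sorted brain endothelial cells from mice with and without Bmal1 in those cells. The genes were taken from the deposited table by symbol, which gave 3 of the 53465 genes listed, and all 3 were among the 15493 genes that passed the filter on low values. The table held 24 libraries, each from a single C57BL/6J mouse of either Bmal1fl/fl control genotype or Bmal1fl/fl; Tie2cre mutant genotype, with 2 mice per genotype at each time point, every 4 h from ZT2 to ZT22 (zeitgeber time, hours after lights on in a 12 h:12 h light:dark cycle). Both groups carried the floxed Bmal1 alleles, and only mutants carried the Cre transgene. Tie2-driven Cre is known to be active in blood lineages as well as in endothelial cells, and where Bmal1 was deleted in these mice was not measured here. Mice of both sexes were used, and their ages and the sex of single mice are not given in the sources used here. The brains were digested, and cells that bound anti-CD31, an endothelial surface marker, were sorted for total RNA sequencing. The question that the time series addresses for these genes is which of them kept its level and its time dependence without endothelial Bmal1.

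PER proteins enter the nucleus with CRY proteins and repress CLOCK and BMAL1, the transcription factor pair that drives the Period genes through E-box sequences. This delayed negative feedback makes the daily cycle of the molecular clock. BMAL1 and CLOCK also drive Dbp, Tef and Hlf, whose products act on D-box sequences together with the repressor NFIL3, and Nr1d1 and Nr1d2, whose products repress Bmal1. Per1 and Per2 are the members needed for the feedback loop, whereas Per3 has a smaller part in timekeeping. Per1 and Per2 are also known targets of glucocorticoid and CREB signalling, which carry time of day from the body and from acute stimuli.

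The genes lie on different chromosomes of GRCm38. Per1 (ENSMUSG00000020893) is at chr11:69095217-69109960 on the plus strand, Per2 (ENSMUSG00000055866) at chr1:91415982-91459324 on the minus strand, and Per3 (ENSMUSG00000028957) at chr4:151003652-151044665 on the minus strand. Their merged exons cover 5631, 5856 and 9608 bases in the GENCODE annotation. Per3 lies inside Camta1, a gene on the same strand, but the exons of both share 0 bases, and Camta1 had a mean of 100.5 normalized reads and a log2 fold change of 0.30 (SE 0.21, adjusted p = 0.843) between genotypes. Reads were assigned per gene, so isoforms were not separated.

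RefSeq promoter sequences (GRCm38.p6) were at hand for 2 of the 3 genes, Per1 and Per3, and they are shown because the letters that clock factors bind differ between them. Each runs from 250 bases before to 50 bases after a transcription start, 5′ to 3′ on the strand of the gene, and capitals mark the motifs found. The first sequence is that of the upstream Per1 start at chr11:69098699-69098998, and the second that of Per3 at chr4:151044616-151044915, on the minus strand.
Per1: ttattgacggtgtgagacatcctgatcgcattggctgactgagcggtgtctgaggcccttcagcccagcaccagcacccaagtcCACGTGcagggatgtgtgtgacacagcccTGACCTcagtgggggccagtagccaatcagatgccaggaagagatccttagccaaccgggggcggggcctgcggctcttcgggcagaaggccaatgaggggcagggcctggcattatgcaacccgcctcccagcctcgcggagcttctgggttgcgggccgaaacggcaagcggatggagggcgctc
Per3: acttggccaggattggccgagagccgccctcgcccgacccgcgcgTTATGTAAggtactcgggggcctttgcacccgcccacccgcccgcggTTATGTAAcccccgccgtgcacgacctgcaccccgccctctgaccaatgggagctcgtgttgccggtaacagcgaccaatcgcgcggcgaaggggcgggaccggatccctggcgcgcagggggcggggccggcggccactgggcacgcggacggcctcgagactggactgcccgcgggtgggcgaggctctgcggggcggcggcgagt
The motifs searched on both strands were CACGTG (E-box), CACGTT (a variant E-box), TTATGTAA (D-box), TGACGTCA (cAMP response element) and AGGTCA (half-site of ROR and REV-ERB receptors), a choice made after these sequences had been seen. The Per1 window held 1 CACGTG, at positions -166 to -161 from the start, and 1 AGGTCA on the opposite strand, printed as TGACCT, at -137 to -132. The Per3 window held 2 copies of TTATGTAA, at -205 to -198 and -158 to -151, and no CACGTG. A second Per1 start at chr11:69099902-69100201 held none of the motifs. Of 32851 RefSeq promoters of this length, 7.15% held CACGTG, 4.68% CACGTT, 0.938% TTATGTAA, 1.79% TGACGTCA and 16.3% AGGTCA. A match is a run of letters and not a measured binding site.

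Totals after the normalization of the study lay between 6136404 and 6648311 reads per library, so differences in original depth are no longer visible. Bmal1, listed as Arntl, had between 1 and 468 normalized reads in controls and between 81 and 354 in mutants. Its gene total showed no fall in the mutant group (log2 fold change 0.96, SE 0.43, adjusted p = 0.639), and because the total includes exons outside the floxed part it does not check the deletion. All 10 endothelial markers were detected, with summed reads of 84714 to 131938 in controls and 94996 to 133195 in mutants. The 8 libraries of ZT6 and ZT18 had library numbers in 1 consecutive run, a mitochondrial share of 2.68% to 3.90% against 5.78% to 17.4% in the other 16, and 1114 to 1869 summed reads of 8 microglial markers against 10020 to 26740. These 2 time points and that run cannot be told apart, so results are also given within the other 4 time points. One library stood apart for some clock genes, though not for all. The library labelled mutant ZT6 replicate 1 had the lowest Arntl of any mutant (81 reads), the highest Nr1d2 (534 reads) and the highest Per2 and Per3. Its Nr1d1 (20 reads), Dbp (87 reads) and Ciart (55 reads) lay within the range of the other mutants, with mutant medians of 46, 90.5 and 47. Values without this library are given beside the mutant tests and fits that it moved, and correlations were not computed without it.

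Per1 was the most abundant of the 3 genes in every library once reads were divided by exon length. As counts per kilobase of exon, scaled to library size (CPM per kilobase), its level was 27.8 ± 12.2 in controls and 29.8 ± 12.8 in mutants (SD over 12 mice each), where the SD includes the change over the day. Per2 followed with 10.5 ± 10.5 in controls and 5.98 ± 3.46 in mutants, and Per3 with 5.98 ± 4.20 and 1.47 ± 1.17. The order was Per1, Per2, Per3 in 10 of 12 control libraries and in 12 of 12 mutant libraries. In the other 2 control libraries, both from ZT2, Per3 was above Per2, and the control levels of Per2 and Per3 were not tested against each other. In bulk RNA of sorted cells, fewer cells with a transcript and less transcript per cell cannot be told apart.

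Per1, the Period gene that responds most promptly to acute signals in many tissues, showed no detectable difference between genotypes in level or in course over the day. In controls it had 376 and 437 normalized reads (ZT2), 1208 and 1360 (ZT6), 1632 and 1211 (ZT10), 978 and 1394 (ZT14), 1065 and 870 (ZT18), then 899 and 326 (ZT22). In mutants it had 381 and 453 reads (ZT2), 1614 and 1215 (ZT6), 1331 and 1143 (ZT10), 1006 and 1242 (ZT14), 1270 and 1699 (ZT18), then 595 and 651 (ZT22). Values at ZT2 were low in both genotypes, values at ZT22 were low in both mutants and in 1 of 2 controls, and the genotypes overlapped at 5 of 6 time points. At ZT18 both mutants were above both controls, a separation shown there by 15.4% of all genes tested. Over all time points the log2 fold change of mutants against controls was 0.09 (SE 0.12, 95% interval -0.16 to 0.34, adjusted p = 0.946, edgeR quasi-likelihood test with Benjamini-Hochberg adjustment). Changes within that interval were not distinguishable at this number of mice, and leaving out 1 library gave 0.025 (control ZT22 replicate 2) to 0.19 (control ZT22 replicate 1). The value was 0.40 (adjusted p = 0.740) within ZT6 and ZT18 and -0.08 (adjusted p = 0.985) within the other 4 time points, so its sign was not the same in both sets.

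**Figure D1:**
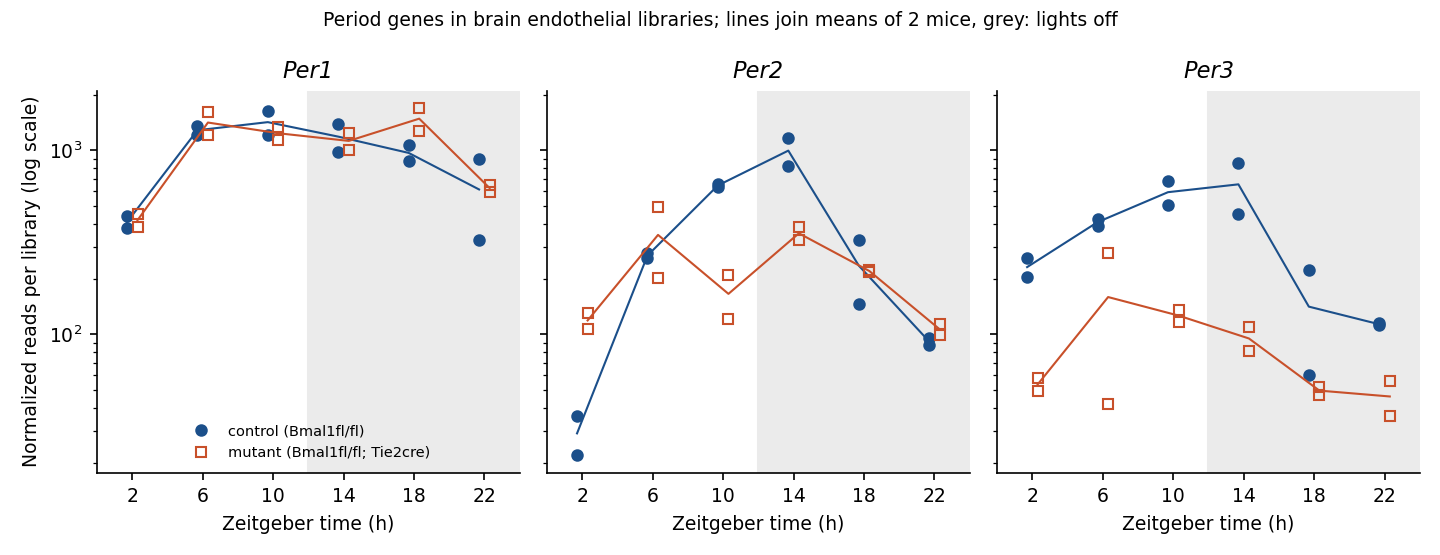
Normalized reads of Per1, Per2 and Per3 in each of the 24 libraries (log axis) against zeitgeber time in hours, with filled circles for controls, open squares for mutants, lines through the means of 2 mice and grey for lights off. Per1 runs together in both genotypes, Per2 crosses, with mutants at 107 and 131 reads against 22 and 36 in controls at ZT2 and below controls at ZT10 and ZT14, and Per3 is lower in mutants at all 6 time points.

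Per2, the Period gene with the deepest daily swing in controls, had a 34.3-fold range of time-point means there and a 3.32-fold range in mutants. Its mean over the 12 mice was 377.4 reads in controls and 218.9 in mutants. On the log2 scale Per2 showed no detectable difference in level over the day, an average over differences of opposite sign. In controls it had 36 and 22 reads (ZT2), 261 and 275 (ZT6), 657 and 631 (ZT10), 822 and 1169 (ZT14), 326 and 147 (ZT18), then 88 and 95 (ZT22). In mutants it had 131 and 107 reads (ZT2), 491 and 203 (ZT6), 211 and 121 (ZT10), 381 and 327 (ZT14), 224 and 218 (ZT18), then 114 and 99 (ZT22). The control means ran from 29.0 reads at ZT2 to 995.5 at ZT14, and the mutant means from 106.5 reads at ZT22 to 354 at ZT14. The 2 genotypes differed in opposite directions at different times of day. Mutants were above both controls at ZT2 and ZT22 and below both controls at ZT10 and ZT14, and the groups overlapped at ZT6 and ZT18. Such a separation upwards was seen in 16.9% of all genes at ZT2 and 16.3% at ZT22, and one downwards in 15.6% at ZT10 and 14.4% at ZT14. At the other time points the upward share was 13.8% (ZT6), 15.5% (ZT10), 26.0% (ZT14) and 15.4% (ZT18). The share of genes separated at several time points in mixed directions was not counted.

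The genotype difference of Per2 was tested at each time point in an edgeR fit of all 12 groups. The log2 fold change was 2.07 at ZT2 (SE 0.42, unadjusted p = 4.69e-05, adjusted p = 0.235), a mutant mean 4.10 times the control mean. It was -1.94 at ZT10 (SE 0.38, adjusted p = 0.0360) and -1.60 at ZT14 (SE 0.37, adjusted p = 0.0668), where control means were 3.88 and 2.81 times those of mutants. Only the difference at ZT10 passed the threshold of 0.05 over all genes, and that call was lost in 13 of 24 fits that each left out 1 library (adjusted p up to 0.358, without mutant ZT10 replicate 2). At ZT2 and ZT10 the i5 sequencing index also differed between the genotypes, 2 in all controls and 1 in all mutants, so index and genotype cannot be told apart at these time points. At ZT6, ZT18 and ZT22 the log2 fold changes were 0.42, -0.08 and 0.21, with adjusted p of 0.986, 1.00 and 0.999. The value at ZT6 turned to -0.40 without mutant ZT6 replicate 1 (adjusted p = 0.972). Over all genes, 0% had a call at ZT2, 0.0129% at ZT6, 0.0645% at ZT10, 0.232% at ZT14, 0% at ZT18 and 0% at ZT22. These counts rested on single libraries, since 10 called genes at ZT10 became 0 to 14 when 1 library was left out, 36 at ZT14 became 0 to 64, 2 at ZT6 became 0 to 5, 0 at ZT2 became up to 8 (without control ZT2 replicate 1) and 0 at ZT22 up to 16 (without control ZT22 replicate 1). Without a filter on low values, 16 to 133 genes were called at each time point. At the 3 time points with 0 calls, 1034 (ZT2), 785 (ZT18) and 446 (ZT22) of 15493 genes had an unadjusted p under 0.05 in edgeR, the only tool run there. Over all time points the log2 fold change of Per2 was -0.24 (SE 0.29, 95% interval -0.82 to 0.34, adjusted p = 0.932), and leaving out 1 library gave -0.41 (control ZT2 replicate 2) to -0.072 (mutant ZT10 replicate 2), with -0.40 without mutant ZT6 replicate 1. Over the other alternatives the value ran from -0.50 to 0.17, the latter within ZT6 and ZT18, so its sign was not fixed.

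Per3, the member with the smaller part in the feedback loop, fell in mutants over the day as a whole, with control means 2.47 to 6.87 times the mutant means at single time points. In controls it had 204 and 260 reads (ZT2), 425 and 389 (ZT6), 677 and 507 (ZT10), 450 and 856 (ZT14), 223 and 60 (ZT18), then 115 and 112 (ZT22). In mutants it had 58 and 49 reads (ZT2), 277 and 42 (ZT6), 136 and 117 (ZT10), 109 and 81 (ZT14), 52 and 47 (ZT18), then 36 and 56 (ZT22). Both mutants were below both controls at each of the 6 time points. Of all 15493 genes, 0.0194%, which is 3 genes, showed this at all 6 time points, and the other two were Nr1d1 and Nr1d2. At single time points such a separation downwards was common, in 18.8% of genes at ZT2, 19.4% at ZT6, 15.6% at ZT10, 14.4% at ZT14, 17.7% at ZT18 and 14.1% at ZT22.

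The log2 fold change of Per3 over all time points was -1.89 (SE 0.24, 95% interval -2.38 to -1.41, adjusted p = 4.18e-05, edgeR). In this test 0.116% of all genes fell and 0.155% rose in mutants. An exact two-sided permutation of genotypes within time points gave p = 4.29e-05 for Per3 (mean log2 difference -1.91, lower at 6 of 6 time points), the smallest value that its 46656 arrangements allow, against 0.422 for Per1 and 0.636 for Per2. By time point the Per3 difference ranged from -1.29 at ZT6 to -2.88 at ZT14, and only that at ZT14 passed the threshold over all genes (adjusted p = 0.0213). Leaving out either control or either mutant of ZT14 ended that call (adjusted p 0.0944 to 0.393). Where a fit leaves out a library of the time point tested, 1 mouse stands for its group and is assumed to vary like the other groups, here and wherever such a value is given for a single time point. The difference at ZT6 rested on which mutant was kept, being -3.28 (adjusted p = 0.0420) without mutant ZT6 replicate 1 and -0.49 (adjusted p = 0.814) without replicate 2. That at ZT18 was -1.50 with all libraries, -0.23 (adjusted p = 1.00) without control ZT18 replicate 1 and -2.16 (adjusted p = 0.424) without replicate 2. Over all time points the values were -2.15 without mutant ZT6 replicate 1 (adjusted p = 4.60e-07) and -1.77 to -2.15 over all fits that left out 1 library. Within the 4 time points outside the ZT6 and ZT18 run, Per3 was lower by a log2 fold change of -2.15 (adjusted p = 2.21e-06), and within ZT6 and ZT18 by -1.40 (unadjusted p = 0.00115, adjusted p = 0.318).

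**Figure D2:**
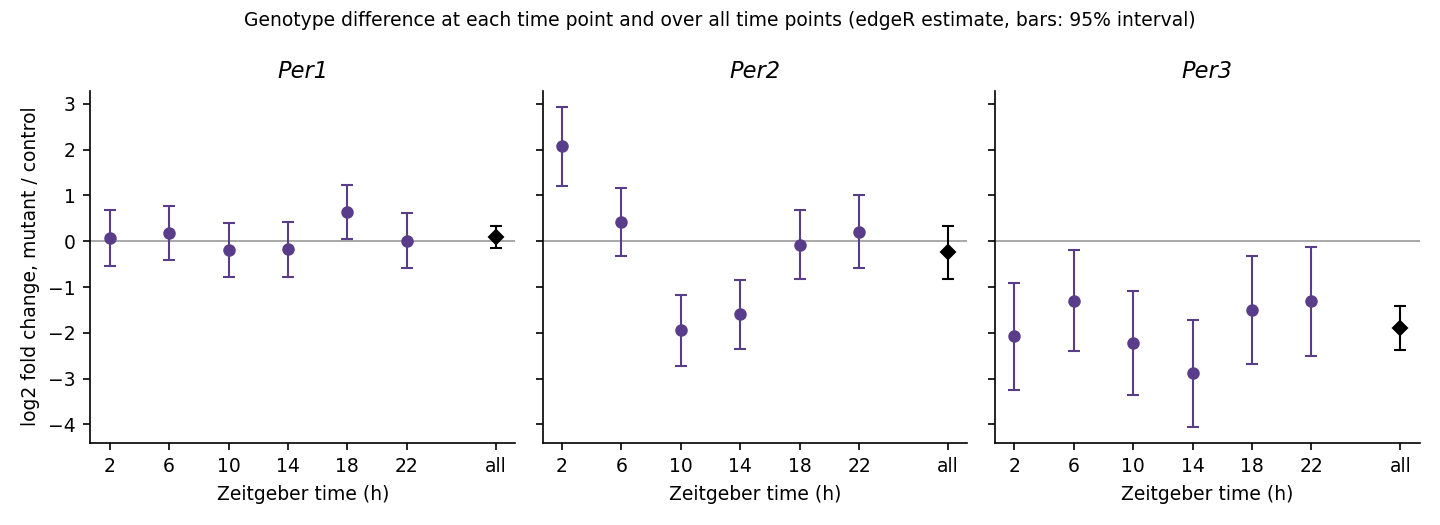
Log2 fold change of mutants against controls for each Period gene at each zeitgeber time (circles, 2 mice per genotype) and over all time points (diamonds, 12 mice per genotype), with 95% intervals from edgeR. Per1 lies between -0.19 and 0.64, with its highest value at ZT18, Per2 runs from 2.07 at ZT2 to -1.94 at ZT10, and Per3 lies between -1.29 and -2.88 throughout.

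The genotype effects of the 3 genes were then compared with each other within libraries, where differences in library scaling cancel. The log2 ratio of Per3 to Per1 reads was -1.65 ± 0.94 in controls (SD, n = 12) and -3.68 ± 0.83 in mutants, a difference of -2.03 that was negative at 6 of 6 time points (exact permutation p = 4.29e-05, adjusted over 3 pairs 0.000129). The ratio of Per3 to Per2 fell by 1.74 on the log2 scale, also at 6 of 6 time points (exact permutation p = 8.57e-05, adjusted 0.000129). The ratio of Per2 to Per1 differed by -0.28, lower at 3 of 6 time points (exact permutation p = 0.413, adjusted 0.413). Per3 lost more than either of the other two, and for Per2 against Per1 no difference was detectable. With ZT6 and ZT18 alone the differences for Per3 were -1.92 against Per1 and -1.68 against Per2, each with an adjusted p of 0.0833, and the smallest unadjusted p that this design allows is 0.0556.

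**Figure D3:**
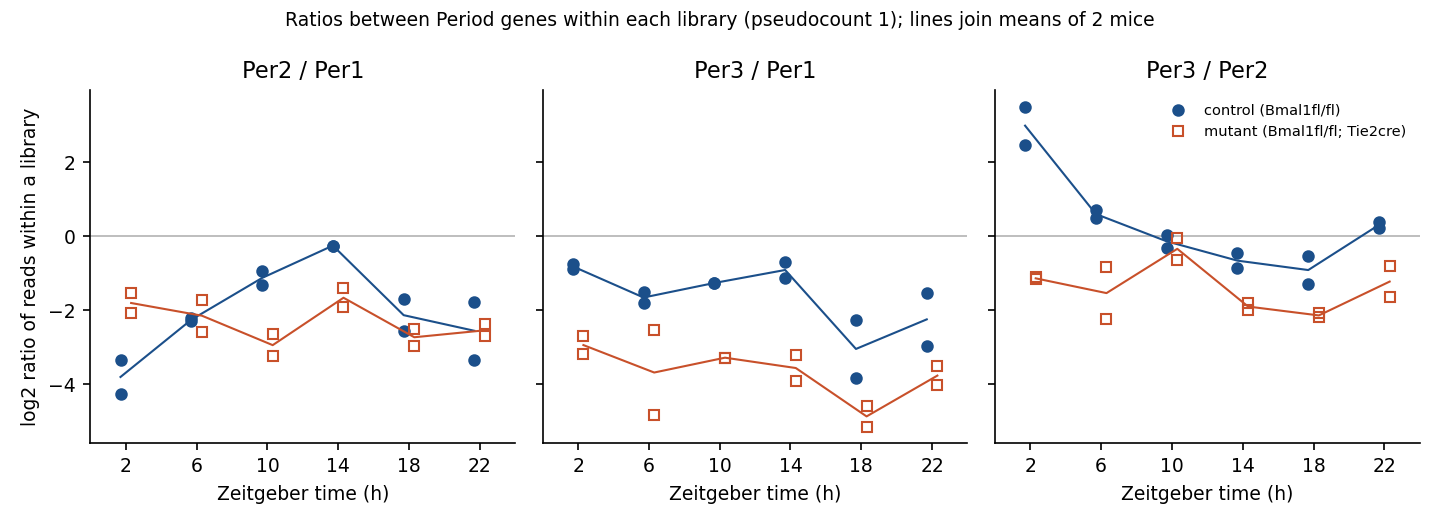
Log2 ratio of reads between 2 Period genes within each library (pseudocount 1) against zeitgeber time, controls as filled circles and mutants as open squares, lines through means of 2 mice. The ratio of Per3 to Per1 is lower in mutants at all 6 time points, whereas the ratio of Per2 to Per1 crosses between the genotypes.

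Dependence on time was tested without assuming a shape, over the 6 time points of each genotype (edgeR, 5 degrees of freedom). In controls all 3 genes passed, Per1 with an adjusted p of 0.000559, Per2 with 2.30e-08 and Per3 with 0.00421, as did 6.95% of all genes. In mutants Per1 (adjusted p = 0.000424) and Per2 (adjusted p = 0.00366) passed and Per3 did not (unadjusted p = 0.00916, adjusted p = 0.116), against 5.47% of all genes. That Per3 missed the threshold does not show that it was constant, and without mutant ZT6 replicate 2 it passed (adjusted p = 0.00178). That call rests on mutant ZT6 replicate 1, which is then the single library of ZT6, and without replicate 1 the adjusted p was 0.0883. Because microglial reads and mitochondrial share set ZT6 and ZT18 apart, the test was repeated on ZT2, ZT10, ZT14 and ZT22. There the control values were 0.00887, 4.48e-08 and 0.000656 for Per1, Per2 and Per3. In mutants they were 0.0620 for Per1, 0.0141 for Per2 and 0.191 for Per3, so the call of Per1 was lost on fewer time points in this test, whereas a 24-h cosine fitted to the same 4 time points in edgeR called it (adjusted p = 0.00983). Of all genes, 0.884% in controls and 0.219% in mutants were called there.

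A test for a 24-h rhythm used meta2d, a joint p-value of the JTK_CYCLE and Lomb-Scargle methods, with the threshold of the study (q under 0.6). In controls (n = 12), Per2 was called (p = 5.07e-05, q = 0.157), and Per3 (p = 0.00535, q = 0.950) and Per1 (p = 0.0111, q = 1) were not. The rate of calls was 0.310% of all genes in controls and 0.0387% in mutants, and 2.43% and 2.27% had an unadjusted p under 0.05. The 48 calls in controls became 0 to 82 when 1 library was left out (82 without control ZT18 replicate 2), and the 6 in mutants became 0 to 24 (24 without mutant ZT6 replicate 2). In mutants none of the 3 was called by meta2d, with unadjusted p of 0.637 for Per1, 0.551 for Per2 and 0.274 for Per3, all of them over 0.05. Without mutant ZT6 replicate 1 the unadjusted p of Per2 was 0.0325, and without replicate 2 that of Per3 was 0.0227, with q = 1 for both. Leaving out 1 library at a time, the mutant values ran from 0.0325 to 0.877 for Per2 and from 0.0227 to 0.660 for Per3. The Per2 call in controls was lost when either control of ZT2 was left out (q = 0.699 and 0.720), where 0 genes of all 15493 were called and the unadjusted p of Per2 was 0.000316 and 0.000321.

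A 24-h cosine fitted in edgeR gave more calls than meta2d. At an adjusted p under 0.6 it called all 3 genes in controls and none in mutants, against 0.858% and 0.194% of all genes. On ZT2, ZT10, ZT14 and ZT22 alone it called all 3 in both genotypes, against 2.04% in controls and 1.94% in mutants. In mutants the adjusted p on these 4 time points was 0.00983 for Per1, 0.206 for Per2 and 0.456 for Per3, so that Per1 alone was under 0.05 there. In controls it was 0.0917 for Per1, 2.91e-06 for Per2 and 0.0114 for Per3. At the threshold of 0.05, 0.219% of all genes in controls and 0.194% in mutants were called on 4 time points, and 0.0904% and 0% on all 6, where 645 genes in mutants had an unadjusted p under 0.05 in edgeR and meta2d called 6.

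A fitted 24-h cosine on log2(reads + 1) gave the size of the swing. For Per2 the peak lay at ZT12.5 (SE 0.45 h) in controls and ZT12.0 (SE 1.7 h) in mutants. Its peak-to-trough difference was 4.58 (SE 0.54) on the log2 scale in controls, 23.9-fold, and 1.24 (SE 0.55) in mutants, 2.37-fold, a difference of -3.34 (95% interval -4.96 to -1.72). For Per3 it was 2.66 (SE 0.54) and 1.63 (SE 0.55), with fitted peaks at ZT9.7 in controls and ZT9.6 in mutants. The Per3 difference of -1.03 had a 95% interval of -2.64 to 0.59 and so was not distinguishable from 0. For Per1 the swing was 1.69 (SE 0.42) in controls and 1.41 (SE 0.45) in mutants, a difference of -0.28 (95% interval -1.58 to 1.01), with peaks at ZT11.5 and ZT12.5. Leaving out 1 library gave a Per1 difference of -0.63 (control ZT22 replicate 1) to -0.025 (control ZT22 replicate 2). Permuting time points gave p = 0.00865 for Per1, 1e-04 for Per2 and 0.00387 for Per3 in controls, and 0.0433, 0.141 and 0.0423 in mutants (permutation tests, n = 12 each). In mutants Per1 and Per3 had an unadjusted p under 0.05 in this test and were not called by meta2d. Without mutant ZT6 replicate 1 the mutant swings were 1.51 for Per1 (permutation p = 0.0188, n = 11), 1.37 for Per2 (p = 0.0266) and 1.36 for Per3 (p = 0.0179), so Per2 then had a p under 0.05 too. The same held without mutant ZT10 replicate 2, where the Per2 swing was 1.73 (permutation p = 0.0229, n = 11). The mutant p of Per1 rose above 0.05 without 8 of 12 single libraries and that of Per3 without 10 of 12. Without mutant ZT6 replicate 1 the genotype difference in swing was -3.21 for Per2 (95% interval -4.60 to -1.82) and -1.30 for Per3 (-2.64 to 0.041). Without mutant ZT6 replicate 2 that of Per3 was -0.64 (95% interval -2.09 to 0.81), with a mutant swing of 2.02.

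**Figure D4:**
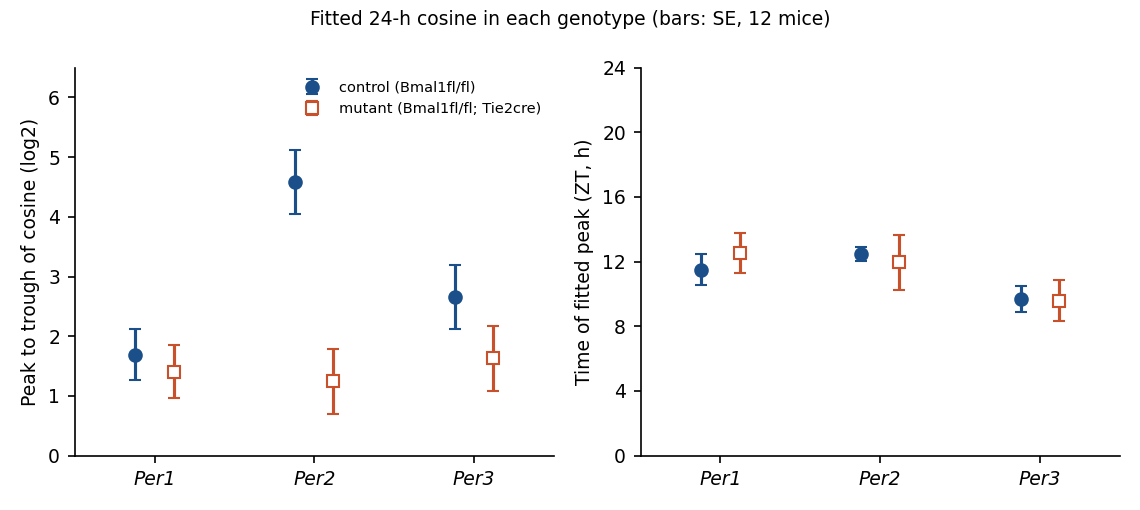
Peak-to-trough difference of the fitted 24-h cosine on the log2 scale (left) and zeitgeber time of its peak in hours (right) for each Period gene, controls as filled circles and mutants as open squares, bars showing SE over 12 mice. The swing of Per2 is 4.58 in controls and 1.24 in mutants, and the fitted peaks of all 3 genes lie between ZT9.6 and ZT12.5.

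The difference in rhythm itself was tested in edgeR by letting the 24-h cosine terms differ with genotype. Per2 had an unadjusted p of 0.00105, Per3 0.320 and Per1 0.775. None passed over all genes (adjusted p = 1.00 each), where 0% of genes did by edgeR, 1 gene did by DESeq2 and 4.26% had an unadjusted p under 0.05. With genotype and time point as factors (5 degrees of freedom), which does not assume a cosine, Per2 passed with an adjusted p of 0.0112 and was 1 of 2 genes that did. On ZT2, ZT10, ZT14 and ZT22 alone it also passed with the cosine terms of the edgeR fit (adjusted p = 0.00726). Under the same settings Per1 had unadjusted p of 0.380 and 0.822 and Per3 of 0.287 and 0.119. Whether the time courses of the genes differ from each other was asked with the ratios within libraries. In controls the ratio of Per2 to Per1 varied with a 24-h cosine (peak to trough 2.98, permutation p = 0.00118, adjusted over 6 tests 0.00354), as did that of Per3 to Per2 (3.14, p = 8.00e-05, adjusted 0.000480), and that of Per3 to Per1 did not pass (1.38, adjusted p = 0.336). In mutants none of the 3 ratios passed, with adjusted permutation p of 0.878 for Per2 to Per1, 0.336 for Per3 to Per1 and 0.336 for Per3 to Per2. Without mutant ZT6 replicate 2 the Per3 to Per1 ratio (adjusted p = 0.00646) and the Per3 to Per2 ratio (adjusted p = 0.0449) did pass in mutants, with ZT6 represented only by replicate 1, the library that stood apart. Without replicate 1 both had an adjusted p of 0.566.

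Other genes of the clock were read from a list of 17, of which all 17 passed the filter. In mutants 5 of the 17 fell and 1 rose, where 0.116% and 0.155% of all genes did, with a median log2 fold change of -0.08 over the list and 0.00 over all genes. The genes that fell were Nr1d1 (-2.26), Nr1d2 (-1.90), Dbp (-1.26), Tef (-0.87) and Hlf (-0.76), which encode the REV-ERB repressors and the D-box activators. The value of Per3, -1.89, lay beside that of Nr1d2, and Per1 and Per2 lay among the 11 genes of the list that did not pass. Cry1, which encodes a partner of PER proteins, rose (0.89, adjusted p = 0.000759), and Cry2 had 0.50 (adjusted p = 0.0551). Npas2 had the largest value of the list, 2.27 (SE 0.53), and did not pass either (adjusted p = 0.0573, edgeR). Dependence on time passed in 11 of the 17 in controls and in 3 in mutants, Bhlhe41, Dbp and Nr1d2, against 6.95% and 5.47% of all genes. At this threshold Per1 and Per2 were time dependent in mutants beside these 3 genes of the list. Tef (adjusted p = 0.0557, edgeR), Nr1d1 (0.0708) and Bhlhe40 (0.0826) lay just above it. The call of Per1 was lost on ZT2, ZT10, ZT14 and ZT22 alone.

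**Figure D5:**
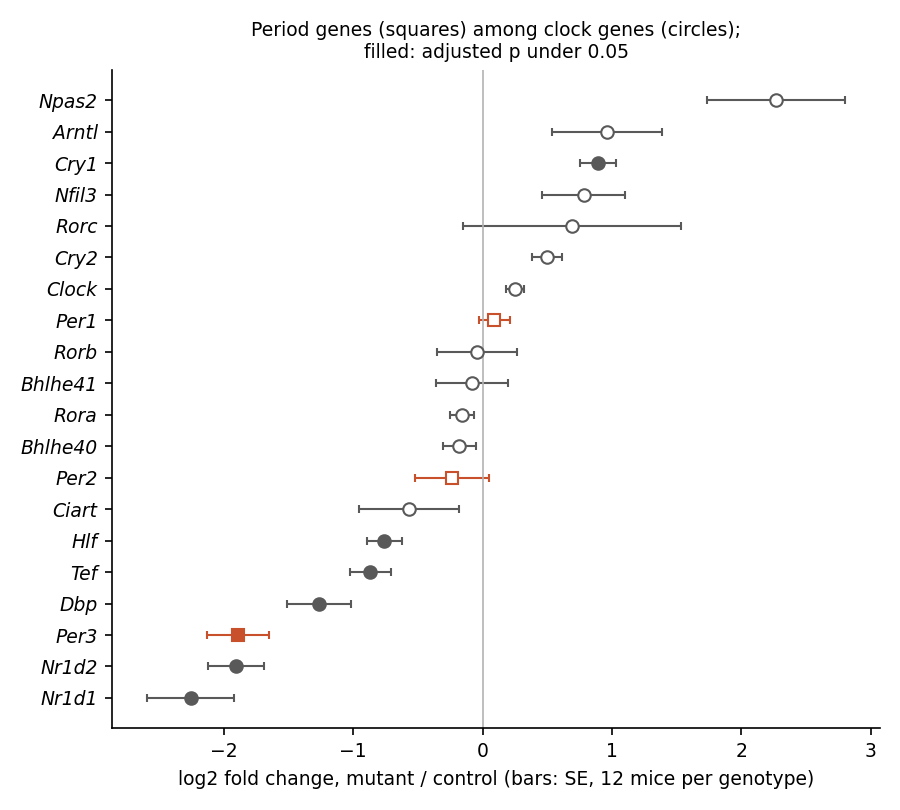
Log2 fold change of mutants against controls over all time points with SE (12 mice per genotype) for the Period genes (squares) and 17 other clock genes (circles), filled where the adjusted p was under 0.05. Per3 at -1.89 sits next to Nr1d2 at -1.90, and Per1 at 0.09 and Per2 at -0.24 are unfilled.

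PER proteins are marked for degradation by casein kinases and the ubiquitin ligase subunits that recognise the phosphorylated form, and their transcripts were read from a list of 11 genes that also holds ligases acting on CRY. Of the 11, 10 were tested and Fbxl21 did not pass the filter. None of the 10 passed the test between genotypes in edgeR, and their log2 fold changes ran from -0.01 for Csnk1d to 0.25 for Csnk2a2 with a median of 0.06. Csnk2a2, a subunit of casein kinase 2, had the largest value of the 10, and its adjusted p was 0.719. The values of 9 of the 10 were above 0, and the summed reads of the list in both mutants lay above those in both controls at 5 of 6 time points, the exception being ZT6, for example with 6462 and 6671 against 5713 and 6408 at ZT22. Single genes were separated upwards in 16.9% of cases at ZT2, 15.5% at ZT10, 26.0% at ZT14, 15.4% at ZT18 and 16.3% at ZT22, and a sum over a list was not tested against other lists. None of the 10 passed the test of time dependence in either genotype, which is close to the 6.95% and 5.47% of all genes that did. Csnk1d, which encodes a casein kinase that phosphorylates PER proteins, had a mean of 607.9 reads in controls and 603.4 in mutants, and Csnk1e 645.2 and 680.

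Signals that act on Period promoters were read from lists of their responsive genes. Of 10 glucocorticoid-responsive genes 1 rose and 0 fell in mutants (median log2 fold change 0.09), the one that rose being Cdkn1a (0.99, adjusted p = 0.00447), a cell cycle inhibitor that other signals also induce. Of 14 immediate-early and CREB target genes none passed the test (median 0.26, range -0.05 to 0.38), and of 9 heat-shock genes none did (median 0.14). The summed reads of both mutants lay above those of both controls at ZT2, ZT6 and ZT14 for the glucocorticoid list, at ZT14 and ZT18 for the immediate-early list and at ZT2 for the heat-shock list, and below them at 0 time points for any of these lists. Of all genes, 16.9% were separated upwards at ZT2, 13.8% at ZT6, 26.0% at ZT14 and 15.4% at ZT18, and nothing particular to these lists is read from the counts. Time dependence was called in 6 of 10 and 9 of 14 genes of the first 2 lists in controls and in 7 of 10 and 8 of 14 in mutants, against 6.95% and 5.47% of all genes. In the heat-shock list it was 6 of 9 in controls and 1 of 9 in mutants. The library run of ZT6 and ZT18 moved with these calls, since the immediate-early sum had a median of 71783 reads there and 44955.5 at the other times, and all 8 microglial markers were time dependent in both genotypes. The part of that run in the calls was not tested. The summed reads of the glucocorticoid list were lowest at ZT2, with 3778 and 4058 in controls and 4372 and 4871 in mutants, and reached 6106 to 8398 in controls and 7374 to 9646 in mutants from ZT6 to ZT18. The highest Per1 mean was at ZT10 in controls and at ZT18 in mutants, with reads that overlapped those of other time points. The control sums of the glucocorticoid list were highest at ZT18, and the mutant sums reached their highest value at ZT14. At ZT22 they were 4168 and 6290 in controls, and 5704 and 6341 in mutants. Immediate-early sums were also low at ZT2, with 22877 to 33224 in controls and 29051 to 47261 in mutants. At ZT14, where Per1 was high, they were 32022 to 33008 in controls and 38098 to 42650 in mutants, and at ZT22 they were 68155 and 81828 in mutants, where Per1 was low. In controls at ZT22 the library with 899 Per1 reads had an immediate-early sum of 79290 and that with 326 Per1 reads one of 31750. The part of these signals, or of the cell isolation that can induce immediate-early genes, in the Per1 values was not tested.

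The genes most like each member were taken by Pearson's r of log2(CPM + 1) over the 24 libraries, among 9896 genes with a mean of at least 50 reads. The coefficients describe these libraries, which share time points and library runs, and no test was made. Per1 was most like Cdc42ep4 (r = 0.90), Tsc22d3 (0.88), Net1 (0.86), Ctgf (0.85) and Irf2bpl (0.83), none of which passed the test between genotypes. Tsc22d3 is a well known glucocorticoid-induced gene and belongs to the list above, and it had r = 0.85 with Per1 in the 12 controls and 0.96 in the 12 mutants. Per2 was most like Pik3c2a (0.91), Ccdc85a (0.87), Clip1 (0.85), Fnbp1l (0.85) and Rapgef6 (0.85), again none with a genotype call. Per3 was most like Nr1d2 (0.91), Hlf (0.90), Tef (0.84), Fmo2 (0.83) and Gm16011 (0.81), and all 5 fell in mutants. For Fmo2, which encodes a flavin-containing monooxygenase, the log2 fold change was -2.75 (adjusted p = 0.00447). These coefficients include the genotype difference that the genes share with Per3. Within controls and within mutants r was 0.85 and 0.80 for Nr1d2, and 0.77 and 0.40 for Gm16011. Among the members themselves, r was 0.75 between Per1 and Per2, 0.52 between Per2 and Per3 and 0.34 between Per1 and Per3. Within controls and within mutants these were 0.84 and 0.71 for Per1 and Per2, 0.68 and 0.63 for Per2 and Per3, and 0.61 and 0.48 for Per1 and Per3. The mutant coefficients include mutant ZT6 replicate 1, with the highest Per2 and Per3 of the mutants, and were not computed without it.

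Markers of other cells and the sequencing index were followed beside the Per3 difference. Over all time points the summed markers of each other cell type overlapped between the genotypes, and 0 of the single markers passed the test of level. Microglial sums were 1114 to 22900 in controls and 1218 to 26740 in mutants, astrocyte sums 4899 to 18650 and 4591 to 20825, oligodendrocyte sums 2805 to 18000 and 2210 to 12069 and red blood cell sums 2244 to 9014 and 1492 to 7008. All 7 astrocyte, 7 oligodendrocyte and 5 red blood cell markers had a log2 fold change below 0, with medians of -0.21, -0.46 and -0.34. At single time points the oligodendrocyte sums of both mutants lay below those of both controls at ZT2, ZT18 and ZT22, and the astrocyte sums at ZT14 and ZT22. Mutant sums lay above control sums at ZT6 and ZT14 for microglia and at ZT2 for red blood cells. Endothelial sums of mutants lay below at ZT2 and above at ZT14, ZT18 and ZT22, neuronal sums below at ZT14 and above at ZT6, and those of pericytes and smooth muscle below at ZT10 and above at ZT6. Among all genes such separations had shares of 14.1% to 19.4% downwards and 13.8% to 26.0% upwards at a time point, the highest upward share being that at ZT14. With the summed markers of all non-endothelial lists as a covariate the log2 fold change of Per3 was -1.85 (adjusted p = 4.41e-05). The i5 index of the library followed genotype at ZT2 and ZT10 and was the same in both genotypes at ZT6, ZT14, ZT18 and ZT22. With the index as a covariate the genotype difference therefore came from the latter time points, and an index effect could not be separated from genotype. In that fit the Per3 value was -1.76 (adjusted p = 0.0112, edgeR), and 7 genes were called in place of 42. Under the same covariates Per1 had 0.10 and 0.16 and Per2 -0.20 and -0.27, each with an adjusted p of at least 0.901.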

How the data were processed

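RNA of CD31-sorted brain endothelial cells from 24 single mice (12 control, 12 mutant) was sequenced from strand-specific total RNA libraries. Alignment by the authors was to GRCm38 with STAR 2.5.3a. They merged lanes with SAMtools 1.3.1 (versions from the submitters' processing notes), and normalized and quantified Ensembl genes with PORT. They deposited whole-number normalized reads per gene, which were handled as counts, and counting error is therefore judged on normalized rather than original reads. Whether PORT counted by strand is not given in the sources used here.

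Groups and replicate numbers were read from the labels. The expression filter of the study (a minimum of 5 reads in 6 libraries of either genotype) left 15493 genes. Genotype, time and interaction terms were fitted by the quasi-likelihood method of edgeR 4.0.16 after TMM scaling (R 4.3.3), with Benjamini-Hochberg adjustment over all genes and a threshold of 0.05. DESeq2 1.42.0 was an alternative. A Python 3.11.15 version of meta2d (NumPy 2.4.6, SciPy 1.17.1, pandas 2.3.3) was called at q under 0.6. Level comparisons between Period genes used log2 ratios with a pseudocount of 1 and exact two-sided permutation of genotypes within time points, and time courses used 100000 permutations of time points. Intervals of cosine amplitudes are delta-method approximations. Levels between genes were set per kilobase of merged exons. Figures were drawn with matplotlib 3.10.9. The edgeR tests of level, rhythm difference and time dependence, and meta2d, were run on simulated data with known changes. The dispersion simulated for edgeR was below the common value of 0.179 in these data, so error rates at the real spread were not measured. The permutation, ratio and cosine amplitude steps were not simulated.

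The Period genes, the gene lists and the motifs were chosen with earlier results of these data known. Named genes were the members, the clock list, the PER kinase and ligase list, and for each member the 5 genes of highest correlation. Genes outside this rule that are named (Camta1, Cdkn1a) were chosen after their values were seen. Replicates are separate mice, and equal replicate numbers did not mark shared mice. Alternatives were other normalizations and filters, DESeq2, the replicate block, the i5 index and marker covariates, subsets of time points and each mouse left out in turn. The test of time dependence on 4 time points and the cosine fits that each left out 1 library were added after the data were seen.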

Additional observations from a re-analysis of the deposited data

Results flagged for a closer look

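The genotype difference of Per2 changed direction between time points. Its interaction of genotype with a 24-h cosine had an unadjusted p of 0.00105 (edgeR), which did not pass over all genes. It passed with time point as a factor (5 degrees of freedom, adjusted p = 0.0112, edgeR) and with the cosine on ZT2, ZT10, ZT14 and ZT22 alone (adjusted p = 0.00726, edgeR). Untested as a pair, the groups did not overlap at 4 time points and lay in opposite directions, with log2 fold changes of 2.07 at ZT2 and 0.21 at ZT22, where both mutants were above both controls, and of -1.94 at ZT10 and -1.60 at ZT14, where both were below. A separation in the same direction was seen in 16.9% of all genes at ZT2, 16.3% at ZT22, 15.6% at ZT10 and 14.4% at ZT14. How many genes were separated at 4 time points in mixed directions was not counted. At ZT22 the groups lay close, with 99 and 114 reads in mutants against 88 and 95 in controls.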

How the results depend on the processing

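The Per3 level difference was called in 34 of 35 alternatives, from -2.15 to -1.76, and the exception was ZT6 and ZT18 alone (-1.40), where fewer mice were tested and the Per3 to Per1 (-1.92) and Per3 to Per2 (-1.68) differences also missed the threshold. Neither Per1 nor Per2 was called for level in any alternative, but Per1 was -0.076 on ZT2, ZT10, ZT14 and ZT22 and Per2 0.17 on ZT6 and ZT18. In edgeR across all genes, the Per2 rhythm difference was called with p of 6.34e-12 without a filter, 1.41e-06 on ZT2, ZT10, ZT14 and ZT22 alone and 1.45e-06 with 5 degrees of freedom. Time dependence in mutants was lost for Per1 on 4 time points, with p of 0.000176, and gained for Per3 without a filter, with p of 1.08e-08. In controls the edgeR cosinor at an adjusted p under 0.6 called Per1 with p of 0.00187, and 0.000311 on 4 time points, and Per3 with p of 0.000147 and 1.33e-05. In mutants it called all 3 on 4 time points, against 1.94% of all genes, with p of 6.78e-06 for Per1, 0.00106 for Per2 and 0.00506 for Per3, and permutation gave p = 0.0433 for Per1 and 0.0423 for Per3. The cause of these changes was not tested.

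Leaving out 1 library gave p from 3.11e-05 to 0.0246 for Per3 time dependence in mutants. For meta2d in controls it gave 1.05e-05 to 0.000341 for Per2, and 0.000983 to 0.0219 for Per3, whose call appeared without control ZT18 replicate 2 (q = 0.435). For ratios over time in mutants, permutation p ran from 0.00323 to 0.538 (Per3 to Per1) and from 0.0299 to 0.479 (Per3 to Per2). Uncalled time-point differences changed sign when 1 library was left out. For Per1 they ran from -0.053 to 0.18 at ZT2, -0.081 to 0.40 at ZT6, -0.38 to 0.033 at ZT10, -0.40 to 0.10 at ZT14 and -0.54 to 0.92 at ZT22, and for Per2 from -0.40 to 0.94 at ZT6 and -0.56 to 0.64 at ZT18.

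Over all genes, 42 were called for level, against 141 without a filter, 99 by DESeq2, 7 with the i5 index, 3 on ZT6 and ZT18, 68 without mutant ZT6 replicate 1 and 25 without mutant ZT6 replicate 2. The level fit with the i5 index took its genotype difference from ZT6, ZT14, ZT18 and ZT22, where both genotypes had the same index. For rhythm difference, 0 became 52 without a filter, 5 on 4 time points, 2 with 5 degrees of freedom, and 1 each with DESeq2, the i5 index and the marker covariate. Time dependence was called in 1076 genes in controls and 847 in mutants, in 1859 and 1580 without a filter, and in 137 and 34 on 4 time points. In mutants meta2d called 6 genes, 24 after TMM scaling and 43 with 10 or more reads in every library. Same-numbered mice did not deviate together (correlations -0.01 to 0.03). With the replicate number as a block the level differences were 0.09 for Per1, -0.26 for Per2 and -1.91 for Per3, 45 genes were called, and no call of the Period genes changed. Values are normalized reads, so original depth does not limit them visibly, and with 2 mice per group single time points rest on few animals.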
